A study of Homo sapiens with 40 samples.

Results

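RNA from mesoderm cultures of human embryonic stem cells that carry a double knockout (DKO) of UTX and UTY was set against RNA from wild-type (WT) mesoderm cultures of the same line. The members are the DKO and WT mesoderm libraries, 2 of each, so 4 of the 40 libraries of the series; the mesoderm cultures of the UTX knockout (XKO) and of the UTY knockout (YKO), also 2 libraries each, were measured in the same table. All of them are SEES3, an established human embryonic stem cell line, sequenced as polyA RNA with a strand-specific kit; their cell type label is that of pluripotent cells, and the germ layer comes from the titles. How and for how long the cells were differentiated, which alleles were edited and how many clones stand for each genotype are not known here. Separate cultures behind the 2 libraries of a genotype are not stated either, so p-values reflect how far these samples spread, which may be technical.

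UTX is the product of KDM6A, an X-linked gene. It takes methyl groups off lysine 27 of histone H3, a mark that Polycomb repressive complex 2 places on silent developmental genes. It also sits in the MLL3 and MLL4 complexes, which act at enhancers. UTY is its paralog on the Y chromosome and has very weak demethylase activity, and KDM6B is a further H3K27 demethylase of the family. In the embryo, mesoderm leaves the primitive streak under WNT, FGF, Nodal and BMP signals. The most posterior streak holds precursors that can give either paraxial mesoderm or spinal cord, while lateral mesoderm, exposed to more BMP, gives heart, vessels and limb field. HOX genes are switched on along their clusters in order, low numbers first, as the body axis is laid down from front to back.

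DKO mesoderm cultures expressed the core streak genes TBXT and MIXL1, picked after their values were seen, and neither was called against WT. Among the 13 streak genes tested, 2 were called higher (FGF8 and SP5) and 2 lower (GSC and MESP1). DKO cultures had far more RNA of neural and neuronal genes such as ZIC1, POU3F2, MAP2 and STMN2. They had far less of lateral mesoderm and posterior HOX genes such as TBX3, FOXF1 and HOXA9, and of the vessel gene KDR. Values are TPM, levels per transcript length scaled to the same total in every library. A gene was tested with limma on log2(TPM + 1) if it had at least 1 TPM in at least 2 of the 8 mesoderm libraries, and it was called at a Benjamini-Hochberg adjusted p under 0.05 over all 15125 genes tested. Fold changes are on the log2(TPM + 1) scale, ± SE, and understate the change of genes at a few TPM. DKO cultures had 963 genes higher than WT, or 6.37% of those tested, and 560 lower, or 3.7%. With no adjustment 4046 genes had p under 0.05. In bulk RNA, fewer cells of a type and less RNA per cell cannot be told apart.

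The targeted genes were still transcribed in the knockouts. KDM6A (chrX:44873177-45112602, plus strand, GRCh38) had 8.71 and 6.72 TPM in DKO, 5.05 and 3.95 in XKO, 2.79 and 2.47 in YKO and 4.29 and 4.14 in WT. UTY (chrY:13248379-13480673, minus strand) had 26.4 and 21.3 TPM in DKO, 6.91 and 3.21 in XKO, 13.4 and 14 in YKO and 11.9 and 10.8 in WT. KDM6B (chr17:7839904-7854796, plus strand) had 79.7 and 57.9 TPM in DKO and 47.1 and 43.7 TPM in WT. In all 3 genes both DKO libraries were above both WT libraries, but the limma adjusted p was 0.316 for KDM6A, 0.16 for UTY and 0.262 for KDM6B, and none was called. The part of each gene that the edits removed is not known here, so these levels check nothing about the protein. KDM6B was called higher in DKO than in XKO (21.5 and 16 TPM in XKO, log2 fold change 1.82 ± 0.30, limma adjusted p = 0.00763). Such a call was common: 22.6% of all genes tested were called between DKO and XKO, with a median difference of 0.42. Among 12 genes of the KDM6 family and the MLL3 and MLL4 complexes, 5 were called higher in DKO than in XKO and none lower.

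Scaling and the trend with gene length differed between genotypes, and the length trend also differed between libraries of a genotype. Over all genes tested the median DKO minus WT difference was 0.21 on the log2 scale, and over genes with a mean of 10 TPM or more it was 0.12, so a gene's change relative to the table is its value less that shift. The 20 most abundant genes took 8.33% and 8.5% of the total in DKO and 8.97% and 8.66% in WT, and ribosomal protein genes took 8.32% and 8.85% in DKO and 10.2% and 10.05% in WT. The median difference was 0 in the shortest of 10 length bins (exon length up to 1736 bases) and 0.58 in the longest (from 10268 bases). Its slope was 0.12 per doubling of length, and between 0.0764 and 0.165 for the 4 pairings of a DKO with a WT library. The single knockouts ran the other way on average, with slopes against WT of -0.12 in XKO and -0.23 in YKO. Against the 8-library mean the slopes of single libraries were 0.166 and 0.191 in DKO and 0.0896 and 0.0259 in WT. They were -0.0113 and -0.116 in XKO and -0.114 and -0.232 in YKO. The DKO to WT slope was 0.02 in endoderm cultures and -0.04 in ectoderm cultures. Long genes also had lower GC content, with a median of 44.2% in the longest bin and 51.3% in the shortest, so length and GC cannot be told apart here.

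**Figure D1:**
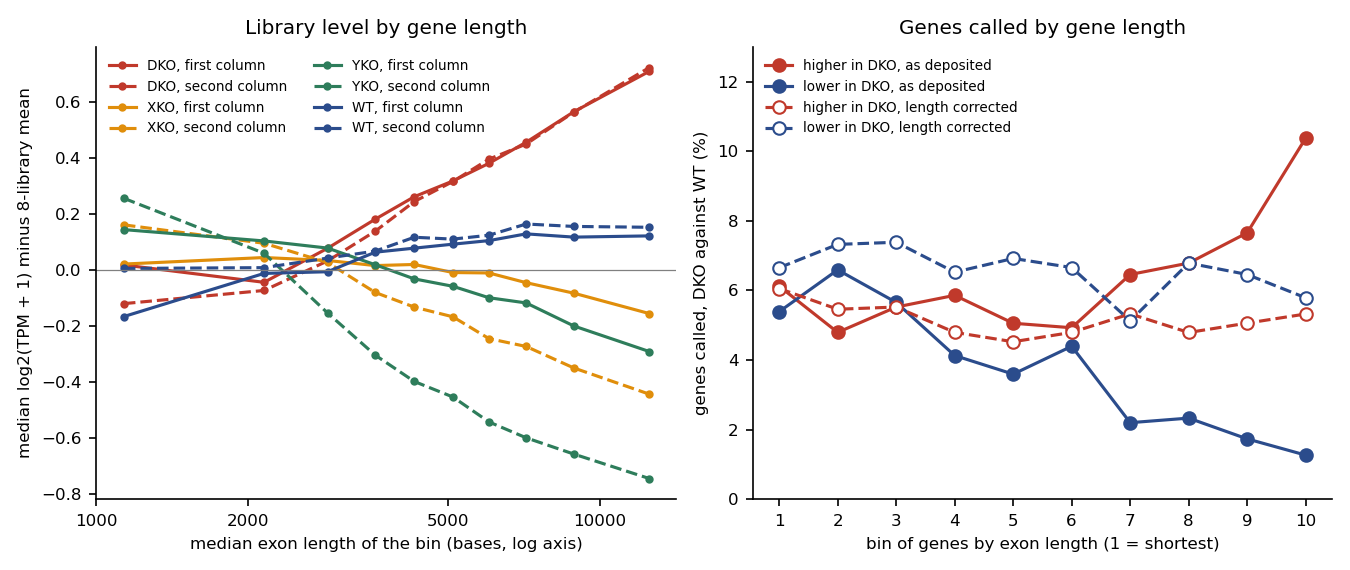
Left, median log2(TPM + 1) of each mesoderm library minus the 8-library mean, by 10 equal bins of genes ordered by exon length (log axis). Right, share of genes called in DKO against WT in each bin, as deposited and after the length trend of each library was subtracted. The DKO libraries rise to 0.71 and 0.72 in the longest bin while the second YKO library falls to -0.74; calls of higher genes reach 10.4% there as deposited and 5.32% after correction.

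Among the genes of the longest bin 10.4% were called higher and 1.26% lower, and among the shortest 6.12% and 5.39%. When the length trend of each library was subtracted, 776 genes were called higher (5.16% of the 15025 with a length) and 986 lower (6.56%). Of the 963 genes called higher as deposited, 744 (77.3%) were called higher after the correction, and of the 560 called lower, 555 (99.1%) were called lower. None changed sides. TMM scaling gave 797 higher and 794 lower, a share of rises of 50.1% beside 63.2% as deposited and 44.0% after length correction. The genes named below as having risen or fallen in DKO against WT were also called after the length correction unless an exception is given. The count of 1523 calls was 353 without the first DKO library (128 higher, 225 lower) and 290 without the second (116 higher, 174 lower). It was 384 without the first WT library (244 higher, 140 lower) and 564 without the second (365 higher, 199 lower), where first and second only name columns. Log2 levels correlated at 0.926 to 0.938 between libraries of a genotype and at 0.796 to 0.866 between DKO and the other genotypes.

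Among the 12 largest rises, MAP2, a microtubule protein of neuronal dendrites, had 143 and 143 TPM in DKO, 0.538 and 0.500 in XKO and 0 and 1.36 in YKO, and was listed at 0 in both WT libraries (limma adjusted p = 5.45e-04). POU3F2, a POU-domain factor of neural progenitors, had 159 and 135 TPM in DKO and 1.4 and 0 TPM in WT (log2 fold change 6.57 ± 0.70, adjusted p = 0.00214). GRIK1, a kainate receptor subunit, had 125 and 105 TPM in DKO and was listed at 0 in WT (adjusted p = 0.00128). SLC1A3, a glutamate transporter of glia and radial glia, had 247 and 227 TPM in DKO and 2.25 and 1.25 TPM in WT (6.46 ± 0.41, adjusted p = 3.83e-04). EN1, a homeobox factor of the midbrain to hindbrain boundary and of dermomyotome, had 165 and 142 TPM in DKO and 0 and 1.33 in WT. FOXB1, a forkhead gene of the early neural tube, had 75.7 and 82.4 TPM in DKO and was listed at 0 in WT. In each of these 6 genes the DKO libraries stood far above the other 6 libraries, none of which exceeded 4.26 TPM.

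The remaining large rises are not known mainly as neural genes. IGFBP7 and IGFBP5, secreted proteins that bind insulin-like growth factors, were both listed at 0 in WT. IGFBP7 had 283 and 259 TPM in DKO and 5.31 and 8.34 TPM in YKO (adjusted p = 2.23e-04 for DKO against WT). IGFBP5 had 119 and 101 TPM in DKO and at most 1.66 TPM elsewhere (adjusted p = 8.99e-04). CYP1B1, a cytochrome P450 that also metabolises retinoids, had 253 and 220.5 TPM in DKO and 1.14 and 3.18 TPM in WT. ANK1, the ankyrin of the red cell membrane that muscle and brain also express, had 136 and 115 TPM in DKO and 0 and 0.352 TPM in WT. CTXN3, a small membrane protein gene, had 90.5 and 76.2 TPM in DKO and was listed at 0 in WT. TRDJ3, a T-cell receptor joining segment of 59 bases, had 220.2 and 302 TPM in DKO, 0 in WT and 86.8 and 0 TPM in YKO; over so short a gene few reads give a large TPM, and this value is uncertain.

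The 12 largest falls included vessel, limb field and pluripotency genes. GRAP2, a signalling adaptor known from T cells, had 0 and 0.961 TPM in DKO and 225 and 168 TPM in WT (log2 fold change -7.12 ± 0.34, adjusted p = 2.03e-04). MCOLN3, a lysosomal cation channel, had 1.31 and 0 TPM in DKO and 165 and 185 TPM in WT (-6.85 ± 0.37, adjusted p = 2.23e-04). HAPLN1, which links hyaluronan to proteoglycans in cartilage and heart valve matrix, had 8.39 and 7.67 TPM in DKO and 233 and 257 TPM in WT. KDR, the main VEGF receptor and a marker of mesoderm that forms vessels and blood, had 1.37 and 3.75 TPM in DKO and 96.9 and 89.9 TPM in WT. TBX4, a T-box factor of the hindlimb field and allantois, had 0 and 1.49 TPM in DKO and 41 and 45.7 in WT. In all 5 genes the DKO libraries lay below the other 6 libraries, most narrowly for TBX4, where the second YKO library had 2.68 TPM.

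ZFP42, the pluripotency marker also called REX1, was listed at 0 in both DKO libraries and had 43.8 and 25.8 TPM in WT (adjusted p = 4.28e-04), with 148 and 138 TPM in XKO. MAOA, a monoamine oxidase, TMEM54, a membrane protein gene, and CD1D, which presents lipids to T cells, were also listed at 0 in DKO. MAOA had 44.5 and 32.3 TPM in WT, TMEM54 had 53 and 51 and CD1D had 25.1 and 26.2. NPY, a neuropeptide, had 4.85 and 0 TPM in DKO and 115 and 136 TPM in WT, and HS3ST2, a heparan sulfate sulfotransferase, had 1.65 and 0 TPM in DKO and 70.3 and 69.7 TPM in WT. RPL29P19, a processed ribosomal pseudogene of 460 bases whose reads may belong to its parent gene, was listed at 0 in DKO and at 74.2 and 41.3 TPM in WT. A value of 0 in such a table can be a failed estimate. The DKO libraries list 9 and 15 genes at 0 whose mean over the other genotypes is above 50 TPM, against 1 to 7 genes in the other libraries, and LY6E is at 0 in all 4 DKO and WT libraries and at 113 to 161 TPM in the single knockouts.

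**Figure D2:**
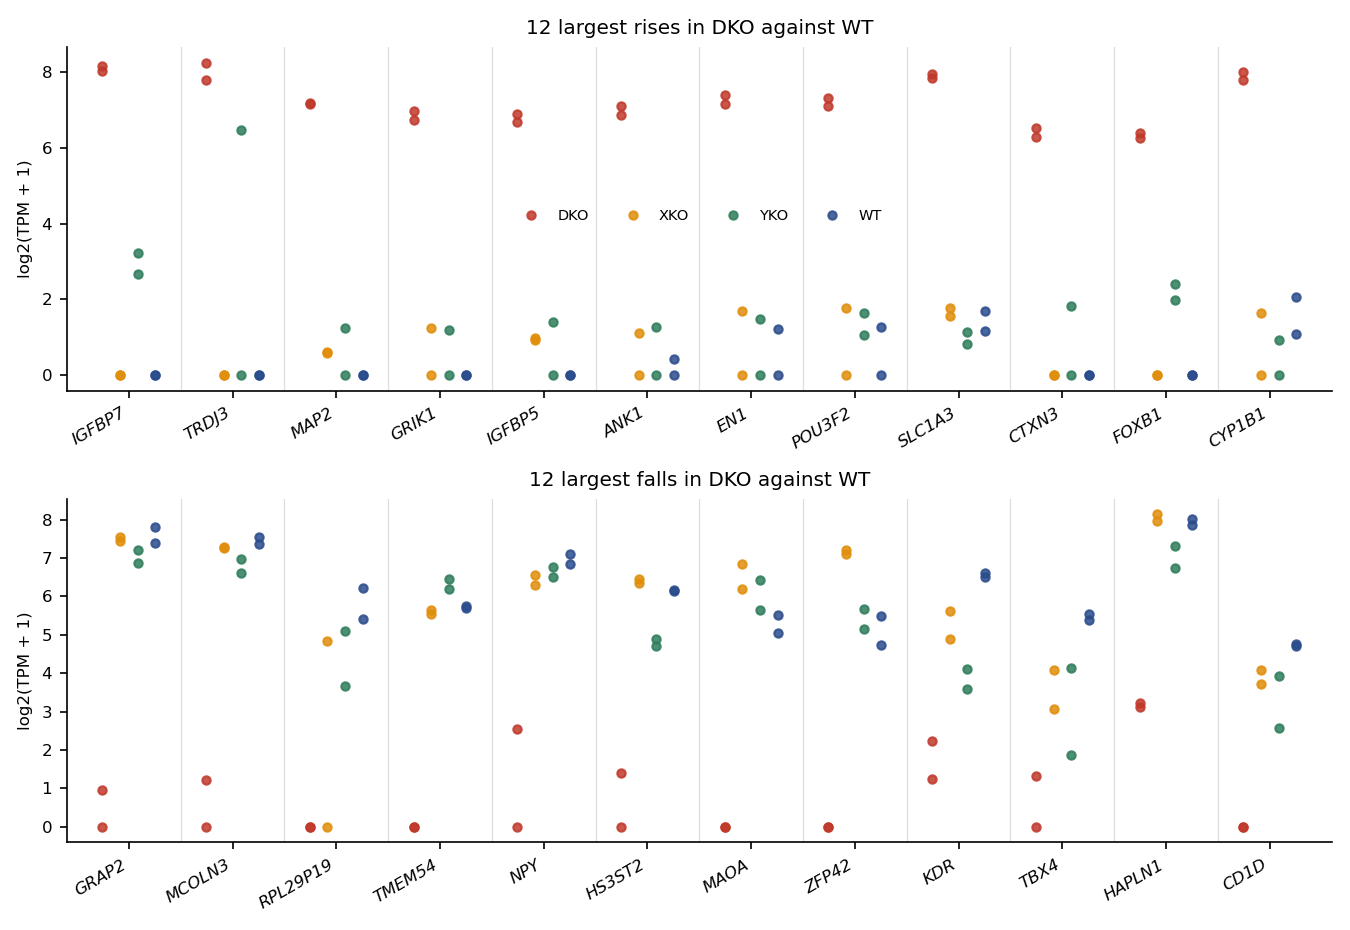
log2(TPM + 1) of each mesoderm library for the 12 largest rises and the 12 largest falls in DKO against WT; each point is a library, 2 per genotype. The DKO points lie outside the range of the other 6 libraries for every gene except RPL29P19, where 1 XKO library is also at 0; for TRDJ3 1 YKO library reaches 86.8 TPM.

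The promoters of the strongest movers differed in CG content, and 4 are shown because they span it in both directions of change: the 300 bases from 250 before to 50 after the RefSeq gene start (GRCh38.p14), 5′ to 3′ on the gene's strand, with CG dinucleotides in capitals. MAP2 is at chr2:209661246-209661545 (plus strand), POU3F2 at chr6:98834324-98834623 (plus), GRAP2 at chr22:39926354-39926653 (plus) and NPY at chr7:24283940-24284239 (plus).
MAP2: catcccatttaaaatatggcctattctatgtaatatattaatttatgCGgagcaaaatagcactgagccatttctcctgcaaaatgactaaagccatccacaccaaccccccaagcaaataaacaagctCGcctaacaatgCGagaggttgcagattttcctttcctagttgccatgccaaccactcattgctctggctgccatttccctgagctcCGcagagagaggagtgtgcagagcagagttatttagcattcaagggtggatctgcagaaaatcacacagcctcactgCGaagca
POU3F2: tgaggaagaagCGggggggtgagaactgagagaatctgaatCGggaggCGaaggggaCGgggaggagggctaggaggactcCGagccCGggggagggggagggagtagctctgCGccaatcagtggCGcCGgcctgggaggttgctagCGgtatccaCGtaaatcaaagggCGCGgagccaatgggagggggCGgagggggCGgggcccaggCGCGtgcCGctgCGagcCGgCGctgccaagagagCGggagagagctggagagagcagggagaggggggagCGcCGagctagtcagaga
GRAP2: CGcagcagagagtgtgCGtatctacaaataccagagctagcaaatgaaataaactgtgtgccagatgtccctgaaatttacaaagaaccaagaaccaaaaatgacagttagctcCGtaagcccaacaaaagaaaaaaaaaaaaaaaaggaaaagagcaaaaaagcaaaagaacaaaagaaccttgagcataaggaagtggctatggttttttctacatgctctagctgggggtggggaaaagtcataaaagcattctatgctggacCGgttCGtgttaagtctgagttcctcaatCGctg
NPY: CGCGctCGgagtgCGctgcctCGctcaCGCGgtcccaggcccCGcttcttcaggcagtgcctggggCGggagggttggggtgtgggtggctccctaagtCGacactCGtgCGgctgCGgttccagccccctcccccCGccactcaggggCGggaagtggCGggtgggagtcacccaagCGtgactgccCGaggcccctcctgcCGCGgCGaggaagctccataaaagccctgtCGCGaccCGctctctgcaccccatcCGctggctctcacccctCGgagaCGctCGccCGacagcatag
MAP2, which rose, has 5 CG and an observed over expected ratio of 0.333, and POU3F2, which also rose, has 24 and 0.836. GRAP2, which fell, has 6 and 0.498, and NPY, which also fell, has 29 and 0.771. Over the 699 risen genes with an entry (72.6%) the median ratio was 0.785, over the 408 fallen genes with an entry (72.9%) it was 0.807, and over all 11189 tested genes with an entry it was 0.839. The letters TATAAA, on either strand, stood in 7.01% of the windows of risen genes, 9.8% of fallen genes and 5.56% of tested genes. These shares describe the windows and were not tested.

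The cultures carried early mesoderm RNA in every genotype. TBXT, the streak factor Brachyury, had 567 and 521 TPM in DKO and 454 and 481 TPM in WT, and MIXL1, a homeobox factor of the streak, had 2037 and 2316 TPM in DKO and 2734 and 2526 TPM in WT. MSGN1, a factor of presomitic mesoderm, had 113 and 111 TPM in DKO and 112 and 111 in WT, and TBX6, which acts beside it, had 79.1 and 84.3 TPM in DKO and 98.9 and 70.7 TPM in WT. None of these 4 genes, named as defining markers after their values were seen, was called. EOMES, which marks anterior streak and endoderm, was at 0 in DKO and at 1.87 and 0 TPM in WT, and NANOG, PAX6 and SOX17, picked after their values were seen, were below the level filter. Posterior streak and presomitic genes were thus present in DKO and WT cultures. Other genes of the pluripotent and neural ectoderm lists were present too, among them SOX2.

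Of the 15 streak genes listed, 13 were tested; 2 were higher and 2 lower, with a median difference of -0.27 beside 0.21 over all genes. FGF8, the main FGF ligand of the streak, had 882 and 787 TPM in DKO and 404 and 369 TPM in WT (1.11 ± 0.15, adjusted p = 0.00509). SP5, a transcription factor that WNT induces, had 1879.6 and 1771 TPM in DKO and 958 and 940.4 TPM in WT (0.94 ± 0.20, adjusted p = 0.0241). GSC, a marker of the anterior streak and organizer, was listed at 0 in DKO and had 12 and 16.7 TPM in WT, and MESP1, a factor of cardiac and cranial mesoderm precursors, was at 0 in DKO and 11.5 and 9.63 TPM in WT. With 1 DKO or WT library left out, 0 or 1 member of the list was called higher and 1 or 2 were called lower.

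Most of the called lateral plate and cardiac regulators were lower in DKO. Of 17 listed, 14 were tested, 6 were lower and 1 higher, and the median difference was -1.88 (-1.90 after length correction). Differences of the tested members ran from -3.45 to 2.97, and the genes named below are all falls. TBX3, a T-box factor of lateral plate and limb field, had 13.8 and 13 TPM in DKO, 107 and 98 in XKO, 84.2 and 72 in YKO and 155 and 158 in WT (-3.45 ± 0.18, adjusted p = 2.23e-04). FOXF1, a forkhead factor of splanchnic mesoderm, had 17.2 and 18.6 TPM in DKO and 171 and 195 TPM in WT (-3.28 ± 0.29, adjusted p = 0.00128). GATA4, a factor of heart and endoderm, had 6.82 and 17.4 TPM in DKO and 99.9 and 83.9 TPM in WT (-2.95 ± 0.40, adjusted p = 0.00503). HAND1, an early marker of lateral and extraembryonic mesoderm, was higher in level and fell less, with 115 and 97.9 TPM in DKO and 369 and 326 TPM in WT (-1.70 ± 0.18, adjusted p = 0.00208). All 4 XKO and YKO libraries lay between DKO and WT for TBX3, FOXF1 and HAND1, and for GATA4 the XKO libraries overlapped WT.

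Of 14 contractile genes 8 were tested and 1, the atrial myosin gene MYH6, was called; it was listed at 0 in DKO and had 25.3 and 19.8 TPM in WT. Of 20 genes of vessels and blood 10 were tested, of which 3 were lower and 1 higher. The median difference of that list was -0.12 (-0.31 after length correction), beside 0.21 over all genes. After KDR, EGFL7, a secreted vessel protein, had 13.5 and 4.64 TPM in DKO and 85.2 and 57.8 TPM in WT (-2.98 ± 0.43, adjusted p = 0.00642), and LMO2, a cofactor of blood formation, had 47.9 and 36.9 TPM in DKO and 89.6 and 130.0 TPM in WT (-1.34 ± 0.26, adjusted p = 0.0188). TIE1, the exception, had 2.58 and 1.77 TPM in DKO and 0 in WT and was not called after length correction (adjusted p = 0.108). Trophoblast and amnion markers gave 4 falls and no rise among 7 tested of 12. This list shares TBX3, HAND1 and ISL1 with the lateral plate list, and the falls of TBX3 and HAND1 count in both. CDX2, which also marks the posterior body axis, had 248 and 238 TPM in DKO and 450.3 and 471 TPM in WT (-0.92 ± 0.16, limma adjusted p = 0.0127). With 1 DKO or WT library left out, 3 to 5 members of the lateral plate list were called lower.

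HOX genes split along their clusters. Of the 39 genes of the family 31 were tested, of which 2 were higher and 14 lower. Of the 11 tested genes numbered 1 to 4, 2 were called higher, HOXB1 and HOXD1, and none lower, with a median difference of 0.15. Of the 11 numbered 5 to 8, 6 were called lower and the median was -1.15. Of the 9 numbered 9 to 13, 8 were called lower and the median was -2.93. Their summed level was 436 and 474 TPM in DKO, 959 to 1239 in the single knockouts and 1093 and 1130.2 in WT, while genes 1 to 4 summed to 572 and 571 in DKO and 531 and 477 in WT.

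HOXA9 had 4.28 and 5.88 TPM in DKO, 75.3 and 103 in XKO, 89.5 and 58.4 in YKO and 137 and 129 in WT (-4.48 ± 0.28, adjusted p = 3.83e-04). HOXD9 had 11.6 and 3.18 TPM in DKO and 80.3 and 87.4 TPM in WT (-3.55 ± 0.47, adjusted p = 0.00464). HOXB7, at a higher level, had 148 and 145 TPM in DKO and 373 and 383 TPM in WT (-1.36 ± 0.16, adjusted p = 0.00309). HOXB1, the most anterior gene of its cluster, had 115 and 103 TPM in DKO and 24.7 and 30.6 TPM in WT (1.95 ± 0.26, adjusted p = 0.00499). The other called HOX genes, named here to complete the family, were HOXA5, HOXA10, HOXA11, HOXA13, HOXB6, HOXB8, HOXB9, HOXB13, HOXC6, HOXC8 and HOXC9, all lower in DKO. HOX genes overlap antisense transcripts, and whether strand was used in quantification is not known here. Between 4 and 5 members were called lower with 1 DKO or WT library left out, and between 10 and 16 under the other alternatives.

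**Figure D3:**
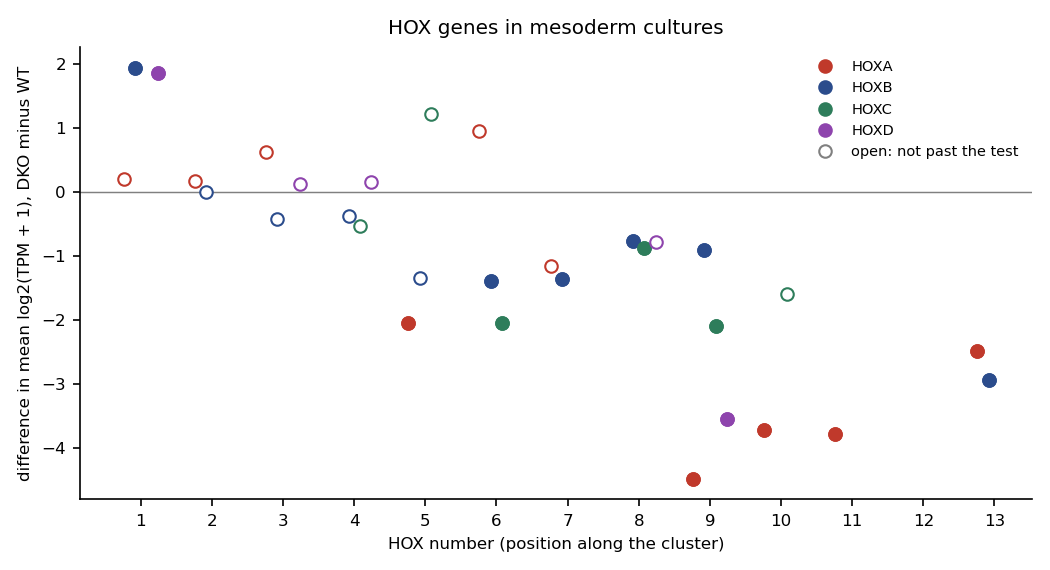
Difference in mean log2(TPM + 1), DKO minus WT, for the 31 HOX genes tested, against their number, which follows position along each cluster; colour is the cluster and filled points passed the test. Points of genes 1 to 4 lie between -0.53 and 1.95, and all 9 genes numbered 9 to 13 lie below 0; 3 of these, HOXA11, HOXA13 and HOXB13, were at 0 TPM in both DKO libraries, so their depth below 0 has no scale.

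Neural ectoderm and neuronal genes had 8 rises each as deposited. Of 23 neural ectoderm genes 16 were tested, 8 were higher and none lower, and the median difference was 1.64 (1.56 after length correction). Not all members rose: their differences ran from -2.39 to 6.57. In the fit of only the 4 DKO and WT libraries, 8 were called higher and 1 lower. ZIC1, a zinc finger factor of the dorsal neural tube that somites also express, had 416 and 430.3 TPM in DKO, 7.44 and 7.78 in XKO, 12 and 10.2 in YKO and 21 and 17.8 in WT (4.38 ± 0.23, adjusted p = 2.23e-04). SOX2, shared by pluripotent and neural cells, had 124 and 92.3 TPM in DKO and 8.15 and 6.05 TPM in WT (3.75 ± 0.51, adjusted p = 0.00499). SOX3, a close relative of SOX2, had 20.8 and 8.55 TPM in DKO and was at 0 in the other 6 libraries. OTX1, an anterior neural homeobox gene, had 13.4 and 14.8 TPM in DKO and 0 in WT. The summed level of the list was 1349 and 1260.5 TPM in DKO, 243 to 339 in the single knockouts and 347 and 332 in WT, and PAX6, a defining gene of neural ectoderm, was at 0 in all 8 mesoderm libraries.

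Neuronal genes rose with them. Of 16 listed 13 were tested and 8 were higher, none lower, with a median of 1.82; after length correction 5 were called and the median was 1.60. STMN2, a microtubule regulator of growing axons, had 838 and 1077 TPM in DKO, 139.9 and 130.0 in XKO, 178 and 137 in YKO and 66.9 and 27.9 in WT (4.42 ± 0.37, adjusted p = 9.45e-04). INA, a neurofilament gene, had 109 and 119 TPM in DKO and 23.1 and 43.3 TPM in WT (1.82 ± 0.35, adjusted p = 0.0183). ELAVL3, an RNA-binding protein of neurons, had 5.46 and 11.2 TPM in DKO and was at 0 in the other 6 libraries. TUBB3, the neuronal tubulin, was low in all of them, at 5.25 and 3.2 TPM in DKO and 1.84 and 0 TPM in WT, and was not called. The summed level was 1252 and 1532 TPM in DKO, 189 to 240.4 in the single knockouts and 145 and 109 in WT, with STMN2 as the main part in DKO. The share of cells that carried this RNA cannot be read from bulk libraries, and the part of neural cells in the other falls was not tested.

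Of 14 neural crest and dorsal axial genes 12 were tested, 6 were higher and 1 was lower. PAX3, shared by neural crest, dorsal neural tube and somites, had 58.4 and 46.4 TPM in DKO and 3.44 and 6.7 TPM in WT (3.18 ± 0.43, adjusted p = 0.00504). PAX7, its paralog, had 14.1 and 11 TPM in DKO and 0 in WT (adjusted p = 0.00579). TWIST1, a factor of mesenchyme, had 26 and 14.9 TPM in DKO and 3.42 and 1.9 TPM in WT (2.53 ± 0.49, adjusted p = 0.0183). MSX2, a BMP-induced factor, was the fall, with 136 and 98.9 TPM in DKO and 408 and 429 TPM in WT (-1.84 ± 0.18, adjusted p = 0.00177). SOX10, a defining crest gene, was below the level filter, and the summed level of the list was 1349.9 and 1192 TPM in DKO and 2021 and 1785 TPM in WT. With 1 DKO or WT library left out, 3 to 6 neural ectoderm genes, 2 to 5 neuronal genes and 0 to 2 crest genes were called higher.

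**Figure D4:**
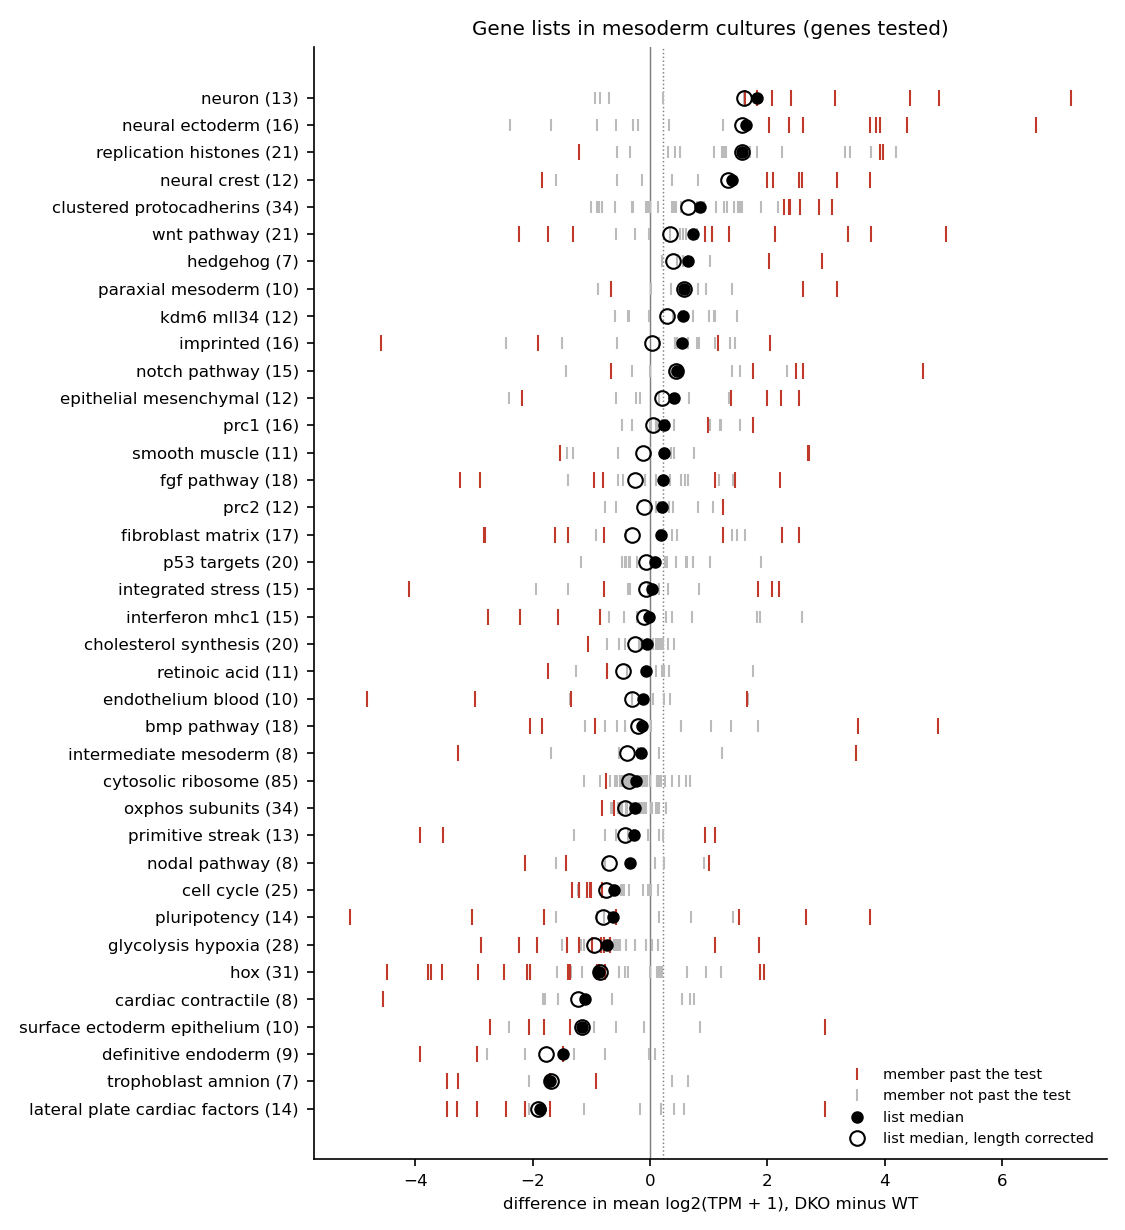
Difference in mean log2(TPM + 1), DKO minus WT, of the tested members of 38 gene lists, ordered by their median; the number in brackets is the members tested, the dotted line is the median of all genes (0.21), ticks are members, red where past the test, filled circles are list medians and open circles the medians after length correction. Neuronal and neural ectoderm lists lie at the top with medians of 1.82 and 1.64. Lateral plate, trophoblast and endoderm lists, which share some members, lie at the bottom with medians of -1.88, -1.70 and -1.48. Differences of genes listed at 0 in a group have no scale.

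Paraxial mesoderm genes were mixed. Of 17 listed 10 were tested, 2 were higher, PAX3 and the Notch ligand gene DLL1, and 1 was lower, the Notch ligand gene DLL3. DLL1 had 72.6 and 90.3 TPM in DKO and 14.3 and 11 TPM in WT (2.60 ± 0.53, adjusted p = 0.0224), and DLL3 had 248 and 238 TPM in DKO and 396 and 373 TPM in WT (-0.66 ± 0.13, adjusted p = 0.0227). Of 14 smooth muscle genes 11 were tested, with 2 higher and 1 lower. TAGLN, an actin-binding protein, had 68.8 and 77.1 TPM in DKO and 10.4 and 10.4 TPM in WT (2.69 ± 0.26, adjusted p = 0.00161), while TPM2, a tropomyosin, had 135 and 101 TPM in DKO and 352 and 326 TPM in WT (-1.53 ± 0.25, adjusted p = 0.00966). Of 16 endoderm markers 9 were tested, 3 were lower and none higher; 2 of the 3, GATA4 and GSC, also stand in the mesoderm lists.

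WNT genes changed in ligands, an amplifier and inhibitors alike. Of 21 WNT genes, all tested, 7 were higher and 3 lower. RSPO3, a secreted amplifier of WNT signals in the tail bud, had 73.4 and 80.3 TPM in DKO, 12.8 and 7.14 in XKO, 29.96 and 17.3 in YKO and 6.88 and 6.14 in WT (3.37 ± 0.38, adjusted p = 0.00268). NOTUM, a secreted inhibitor that WNT induces, had 1350.1 and 1112 TPM in DKO and 614 and 563 TPM in WT (1.06 ± 0.18, adjusted p = 0.0119), and DKK4, another such inhibitor, had 285 and 345 TPM in DKO and 83.8 and 59.4 TPM in WT (2.14 ± 0.33, adjusted p = 0.0083). WNT5B, a non-canonical ligand, went down, with 140.0 and 147 TPM in DKO and 509 and 450.1 TPM in WT (-1.73 ± 0.13, adjusted p = 7.32e-04). DKK1 was the most abundant, at 5819 and 6397 TPM in DKO and 4604 and 5070.3 TPM in WT, and was not called (adjusted p = 0.263).

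Among 18 FGF genes, all tested, 3 were higher and 4 lower. The ligand gene FGF17 had 903 and 855 TPM in DKO and 361 and 283 TPM in WT (1.45 ± 0.16, adjusted p = 0.00214), a rise like that of FGF8 above. The receptor gene FGFR3 fell, with 4.47 and 1.23 TPM in DKO and 32.4 and 31.4 TPM in WT (-3.24 ± 0.46, adjusted p = 0.00568). FGFR4, a related receptor gene, also fell, with 7.2 and 7.42 TPM in DKO and 68.1 and 54.5 TPM in WT (-2.90 ± 0.24, adjusted p = 9.71e-04). FGFR1, the main receptor of mesoderm, named as the most abundant receptor of the list, was not called (114 and 110.0 TPM in DKO and 91.4 and 84.6 TPM in WT).

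The BMP list gave 2 rises and 3 falls among 18 tested of 19. The ligand gene BMP6 had 46.9 and 36.1 TPM in DKO and 0 to 1 TPM in the other 6 libraries (4.90 ± 0.50, adjusted p = 0.00182). The ligand gene BMP7 fell, with 63.1 and 53.7 TPM in DKO and 119.5 and 106 TPM in WT (-0.94 ± 0.19, adjusted p = 0.0201). BAMBI, a decoy receptor that BMP induces, fell to 107 and 117 TPM in DKO, against 501 and 427 TPM in WT (-2.04 ± 0.19, adjusted p = 0.00156). In the Nodal list FOXH1, a partner of SMAD proteins, was lower, with 25.8 and 26.5 TPM in DKO and 91.4 and 56.5 TPM in WT (-1.43 ± 0.26, adjusted p = 0.0157), and FST, which encodes the activin antagonist follistatin, was higher, with 129 and 102 TPM in DKO and 59.5 and 53.9 TPM in WT (1.00 ± 0.21, adjusted p = 0.0246).

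Of 15 Notch genes tested out of 17, 4 were higher and 1 lower; the receptor gene NOTCH3 had 178 and 147 TPM in DKO and 48.6 and 46.1 TPM in WT (1.75 ± 0.36, adjusted p = 0.0228). The target gene HES4 had 15.5 and 37.2 TPM in DKO and 0 in WT. Of 7 hedgehog genes tested out of 9, 2 were higher, the effector gene GLI2 (49.4 and 52.4 TPM in DKO and 11.5 and 11.8 TPM in WT; 2.03 ± 0.37, adjusted p = 0.015) and the decoy receptor gene HHIP (8.71 and 4.98 TPM in DKO and 0 in the other 6 libraries). Retinoic acid genes gave 2 falls among 11 tested of 16, the receptor gene RARG (44.8 and 46.4 TPM in DKO and 156 and 153 TPM in WT; -1.74 ± 0.18, adjusted p = 0.00177) and the binding protein gene CRABP2 (1389 and 1412 TPM in DKO and 2391 and 2252 TPM in WT; -0.73 ± 0.13, adjusted p = 0.0141). With 1 DKO or WT library left out, 1 to 2 genes of the WNT list, 1 to 3 of the FGF list and 0 to 1 of the Notch list were called higher.

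Epithelial keratins were lower and mesenchymal markers were split. Of 16 surface epithelium genes 10 were tested, 4 were lower and 1 higher, and the same counts came back when any 1 of the 8 libraries was left out. KRT8 and KRT18, partner keratins of simple epithelia, fell together. KRT8 had 88.8 and 88.1 TPM in DKO and 401 and 347 TPM in WT (-2.06 ± 0.15, adjusted p = 5.28e-04), and KRT18 had 84.7 and 136 TPM in DKO and 407 and 348 TPM in WT (-1.80 ± 0.22, adjusted p = 0.00361). CLDN6, a tight junction protein of early embryonic epithelia, had 129.5 and 137 TPM in DKO and 322 and 367 TPM in WT (-1.36 ± 0.14, adjusted p = 0.0021). The exception was the cadherin gene CDH3, with 95.5 and 95.8 TPM in DKO, 7.39 to 13.4 TPM in the single knockouts and 11.7 and 10.7 TPM in WT (2.98 ± 0.30, adjusted p = 0.00177).

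Genes of the epithelial to mesenchymal transition gave 4 rises and 1 fall among 12 tested of 15, and 1 rise and 1 fall with any 1 DKO or WT library left out. VIM, which encodes vimentin, had 2230.1 and 2451 TPM in DKO and 893 and 901 TPM in WT (1.38 ± 0.16, adjusted p = 0.00281), and the repressor gene ZEB1 had 32 and 39.9 TPM in DKO and 5.52 and 8.35 TPM in WT (2.23 ± 0.45, adjusted p = 0.0223). SNAI1, the repressor that streak cells use to leave the epithelium, fell, with 55.9 and 45.3 TPM in DKO and 248 and 214 TPM in WT (-2.17 ± 0.25, adjusted p = 0.00285). Among 17 matrix and fibroblast genes tested of 20, 5 were lower and 3 higher; with 1 DKO or WT library left out, 2 to 3 were lower and 0 higher. The rise of TWIST1 counts in the matrix, transition and neural crest lists alike. The collagen VI genes COL6A1 and COL6A2, which lie beside each other on chromosome 21, both fell. COL6A1 had 93 and 56 TPM in DKO and 529 and 510.4 TPM in WT (-2.83 ± 0.30, adjusted p = 0.00199), and COL6A2 had 27.6 and 25.6 TPM in DKO and 219 and 169 TPM in WT (-2.81 ± 0.17, adjusted p = 3.70e-04). FBN1, which encodes the microfibril protein fibrillin, rose to 41.3 and 40.8 TPM in DKO, against 8.09 and 7.59 TPM in WT (2.25 ± 0.44, adjusted p = 0.0188), or 1.58 after length correction.

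Of 29 glycolysis and hypoxia genes 28 were tested, 10 were lower, 2 higher and 16 not called, with a median of -0.74, and 12 were lower after length correction. PDK1, a pyruvate dehydrogenase kinase gene, had 3.5 and 4.4 TPM in DKO and 35.9 and 34.3 TPM in WT (-2.87 ± 0.30, limma adjusted p = 0.00198). LDHA, which makes lactate, had 254 and 228 TPM in DKO and 974 and 873 TPM in WT (-1.93 ± 0.21, adjusted p = 0.00238), and PKM, a pyruvate kinase gene, had 671 and 687 TPM in DKO and 1453 and 1261 TPM in WT (-0.99 ± 0.13, adjusted p = 0.00421). ENO2, the neuronal enolase, rose, with 54.6 and 55.5 TPM in DKO and 11.2 and 18.6 TPM in WT (1.86 ± 0.32, adjusted p = 0.0115). Subunits of oxidative phosphorylation, short genes as a rule, had 2 falls among 34 and a median of -0.26, and 1 of 85 ribosomal protein genes was called lower (RPS26; adjusted p = 0.051 after length correction). The median of the glycolysis and hypoxia list was between -0.90 and -0.72 with 1 DKO or WT library left out.

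Of 25 cell cycle genes, 7 were lower and none higher as deposited, and 14 were lower after length correction. The mitotic kinase genes AURKA and AURKB both fell. AURKA had 96.2 and 114 TPM in DKO and 252 and 235 TPM in WT (-1.21 ± 0.19, adjusted p = 0.00858), and AURKB had 116 and 98.1 TPM in DKO and 298 and 241 TPM in WT (-1.32 ± 0.19, adjusted p = 0.00652). MCM7, part of the replicative helicase, had 326 and 319 TPM in DKO and 686 and 618 TPM in WT (-1.01 ± 0.12, adjusted p = 0.00361). With 1 DKO or WT library left out, 1 or 2 members of the list were called lower. Of 22 replication histone genes, whose transcripts mostly lack polyA tails, 21 were tested, 2 were higher and 1 lower, and the median difference was 1.57. Integrated stress response genes gave 3 rises and 2 falls among 15 tested of 16, and 1 rise and 2 falls after length correction. CHAC1 was at 0 in DKO and at 23.3 and 11.1 TPM in WT, and ATF3 was at 40.7 and 51.5 TPM in DKO and 10.1 and 8.47 TPM in WT (2.19 ± 0.31, adjusted p = 0.00567). Interferon-inducible genes gave 4 falls among 15 tested of 21, led by IFITM1 with 78 and 57.1 TPM in DKO and 537 and 386 TPM in WT (-2.75 ± 0.33, adjusted p = 0.00334).

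Over all genes 6.37% were called higher and 3.7% lower. Of 12 genes of the KDM6 family and the MLL3 and MLL4 complexes limma called none, 5 had an unadjusted p under 0.05, and the median was 0.55 (0.29 after length correction). Of 12 PRC2 genes 1 was higher, EPOP, a subunit that modulates the complex in stem cells, with 113 and 108 TPM in DKO and 48.2 and 44.4 TPM in WT (1.24 ± 0.18, adjusted p = 0.00689). Of 16 PRC1 genes tested out of 17, 2 were higher, PCGF5 (39.1 and 40.05 TPM in DKO and 9.85 and 12.3 TPM in WT; 1.75 ± 0.39, adjusted p = 0.0306) and PHC2 (192 and 171 TPM in DKO and 89.2 and 91.7 TPM in WT; 0.99 ± 0.21, adjusted p = 0.0248). These 3 calls were lost when any 1 of the DKO or WT libraries was left out. Clustered protocadherins, adhesion genes that neurons choose from in combination, gave 6 rises and no fall among 34 tested of 45. That count was 4 after length correction, 0 without either DKO library or the first WT library, and 2 without the second WT library. PCDHGC4 had 116 and 118 TPM in DKO and 20.6 and 17.6 TPM in WT (2.56 ± 0.41, adjusted p = 0.00876), and members of these clusters share exons, so reads may be split between them.

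Among imprinted genes, expressed from 1 parental copy, 2 rose and 2 fell of 16 tested out of 20. MEST had 573 and 559.9 TPM in DKO and 2214 and 2034 TPM in WT (-1.90 ± 0.14, adjusted p = 6.67e-04). NNAT had 0 and 8.95 TPM in DKO, 353 and 377 in XKO, 269.7 and 270.4 in YKO and 87.3 and 62.9 in WT (-4.57 ± 0.87, adjusted p = 0.0175). GRB10, a growth adaptor, had 283 and 258 TPM in DKO and 56.4 and 75.3 TPM in WT (2.04 ± 0.27, adjusted p = 0.00491). Of 19 pluripotency genes 14 were tested, 3 were higher and 4 lower. Besides ZFP42 and SOX2, POU5F1, the core factor OCT4, had 13.5 and 33 TPM in DKO and 85.2 and 68.5 TPM in WT (-1.80 ± 0.40, adjusted p = 0.03), and DPPA4 had 77.2 and 95.2 TPM in DKO and 26 and 33.5 TPM in WT (1.51 ± 0.28, adjusted p = 0.0154).

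The single knockouts bear on what loss of either paralog alone does. Undifferentiated UTY knockout cells have a control of their own in the series. Whether the mesoderm YKO and WT cultures come from the same stock is not known here, so a stock difference cannot be told apart from loss of UTY. Against WT, 6 genes were called in XKO (0.0397%) and 2 in YKO (0.0132%), while 1616 and 3657 genes had an unadjusted limma p under 0.05. The 2 in YKO were FGF8, with 1385 and 1730.2 TPM in YKO and 404 and 369 TPM in WT (2.00 ± 0.15, adjusted p = 0.0107), and LY6E. Without the first YKO library 2831 genes were called in YKO, and without the second 4. DKO was also set against each single knockout directly, using the same DKO libraries each time. It differed from XKO in 3411 genes (22.6%; 2444 higher and 967 lower) and from YKO in 5105 genes (33.8%; 3902 higher and 1203 lower). After length correction the splits were 1153 higher and 1630 lower against XKO, and 1533 higher and 2029 lower against YKO.

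A non-additivity contrast took the DKO effect less the XKO and YKO effects, each against the same WT libraries. It called 4263 genes (28.2%), 3291 above and 972 below the sum of the single effects, or 1056 above and 1511 below after length correction. ZIC1 was above the sum by 6.38 ± 0.33 (adjusted p = 6.02e-04) and CYP1B1, at 3.18 TPM or less outside DKO, by 8.19 ± 0.95 (adjusted p = 0.00542). Below the sum were HAPLN1 (-3.97 ± 0.31, adjusted p = 0.00144), GRAP2 (-6.45 ± 0.48, adjusted p = 0.00139) and COL6A2 (-3.17 ± 0.25, adjusted p = 0.00144). MAOA and S100A6, a calcium-binding protein gene, were at 0 in DKO. MAOA had 49.5 to 114 TPM in the single knockouts and 44.5 and 32.3 TPM in WT, and S100A6 had 73.8 to 171 TPM in the single knockouts and 7.03 and 7.83 TPM in WT.

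FGF8 was below the sum (-1.96 ± 0.21, adjusted p = 0.00538), with 809 and 810.4 TPM in XKO. For some other genes named above non-additivity was not called. STMN2 had 139.9 and 130.0 TPM in XKO and 178 and 137 TPM in YKO, and its non-additivity was 0.98 ± 0.52 (adjusted p = 0.184). FGF17 (-0.38 ± 0.22, adjusted p = 0.226), HAND1 (-0.29 ± 0.25, adjusted p = 0.408) and TAGLN (0.49 ± 0.36, adjusted p = 0.33) were not called either. KDR, with 48.1 and 28.8 TPM in XKO and 16.2 and 11 TPM in YKO against 96.9 and 89.9 TPM in WT, gave -0.80 ± 0.61 (adjusted p = 0.347), but was called below the sum after length correction (adjusted p = 0.0479).

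The same DKO to WT comparison was made in endoderm and ectoderm cultures, whose tables were normalised separately, so levels are not compared between them. Endoderm gave 1896 calls (12.1% of 15660) and ectoderm 1240 (8.03% of 15433). Of the 871 mesoderm rises tested in both, 234 were also higher in endoderm, which is 26.9% of the mesoderm list and 23.1% of the 1015 endoderm rises. Of the 882 tested in ectoderm, 131 were higher there, 14.9% of the mesoderm list and 23.2% of the 564 ectoderm rises. For falls the shared genes were 105 in endoderm (20.5% of 513 mesoderm and 15.6% of 672 endoderm falls) and 76 in ectoderm (15.5% of 490 and 14% of 542). Opposite calls were 68 in endoderm and 73 in ectoderm. The 1015 rises and 672 falls of endoderm are out of 14499 genes tested in both mesoderm and endoderm. The 564 rises and 542 falls of ectoderm are out of 14448 genes tested in both mesoderm and ectoderm.

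POU3F2 and IGFBP5 were higher and ZFP42 and KDR lower in DKO in all 3 layers. In endoderm cultures POU3F2 had 192 and 194 TPM in DKO and was listed at 0 in WT (limma adjusted p = 1.64e-04). In ectoderm cultures POU3F2 had 222 and 217 TPM in DKO and 2.43 and 4.54 TPM in WT (5.66 ± 0.28, adjusted p = 5.65e-05). IGFBP5 had 252 and 265 TPM in DKO and 3.33 and 4.59 TPM in WT in endoderm and 1201 and 1008 TPM in DKO and 81.7 and 85.7 TPM in WT in ectoderm. ZFP42 was listed at 0 in all DKO libraries of both layers and had 37.9 and 52.2 TPM in WT endoderm and 29.1 and 22.3 TPM in WT ectoderm. IGFBP7, MAP2 and GRIK1 were called higher in endoderm too and not in ectoderm, where MAP2 had 296 and 332 TPM in DKO and 298 and 267 TPM in WT. SLC1A3, FOXB1 and CYP1B1 were called in neither. These differences between layers were not tested.

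**Figure D5:**
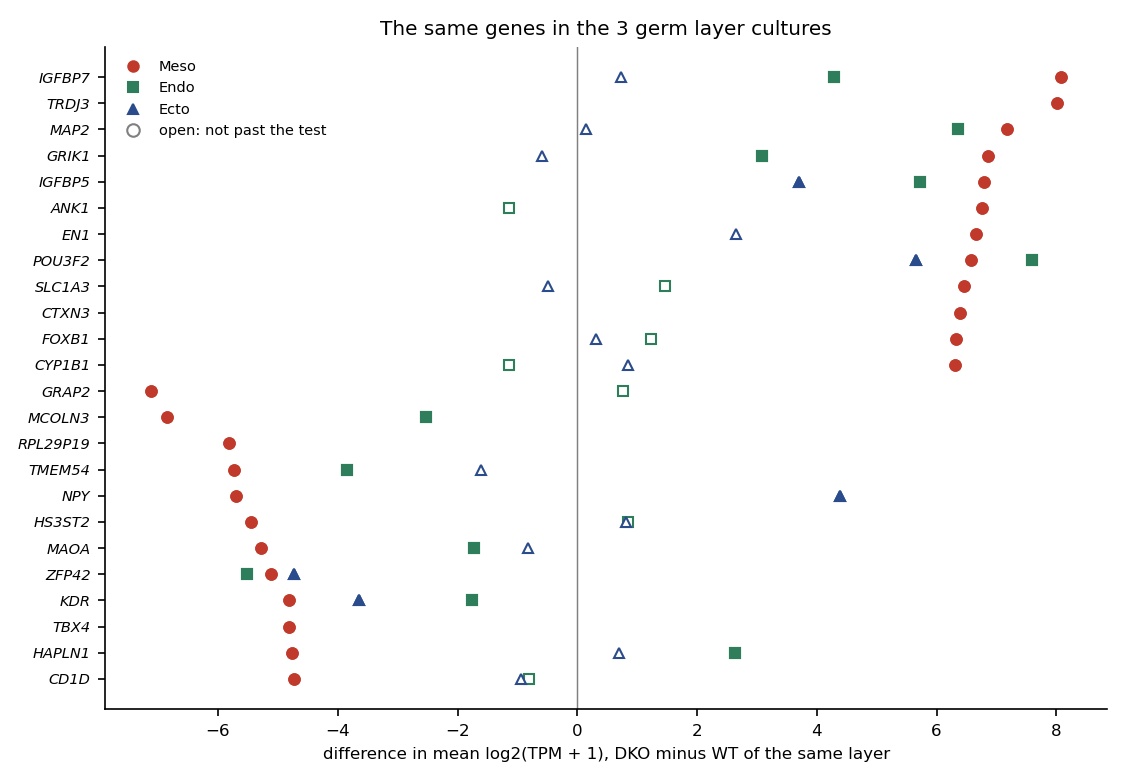
Difference in mean log2(TPM + 1), DKO minus WT of the same layer, for the 24 genes with the largest mesoderm changes in mesoderm (Meso), endoderm (Endo) and ectoderm (Ecto) cultures; filled points passed the test and a gene not tested in a layer has no point. POU3F2 and IGFBP5 lie to the right and ZFP42 and KDR to the left in all 3 layers, and NPY in ectoderm and HAPLN1 in endoderm lie on the other side. Differences of genes listed at 0 in a group have no scale.

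Some of these differences were already large before differentiation, and others were small or not seen. In undifferentiated cells, read as CPM computed from the deposited counts, with no test and on another scale than TPM, MAP2 had 345 and 349 CPM in DKO and 4.01 and 4.14 CPM in WT, IGFBP5 had 338 and 328 CPM in DKO and 19.9 and 15.5 CPM in WT, and ZFP42 had 0.333 and 0.127 CPM in DKO and 43.7 and 35.1 CPM in WT. FBN1 had 53.1 and 56.5 CPM in DKO and 4.75 and 6.71 CPM in WT, and VIM had 225 and 231 CPM in DKO and 46.7 and 45.4 CPM in WT. By contrast IGFBP7 had 0.444 and 0.254 CPM in DKO and 0.594 and 0.276 CPM in WT. GRAP2 had 0.222 and 0.127 CPM in DKO and 0.446 and 0 CPM in WT. Both genes were near the floor there. TBX3 had 1.78 and 1.65 CPM in DKO and 3.12 and 2.94 CPM in WT. STMN2 had 14.6 and 15.2 CPM in DKO and 9.66 and 10.8 CPM in WT. TBX3 and STMN2 thus differed in the same direction as in mesoderm cultures, but by less. SOX2 was high in both, with 481 and 473 CPM in DKO and 398 and 340.3 CPM in WT. HOXB7 and HOXD9 were at 0 in all 4 of these libraries.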

How the data were processed

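RNA-seq of 4 genotypes of SEES3 mesoderm cultures, 2 libraries each, was read from the authors' deposited table of TPM, levels per transcript length scaled to 1000000 per library. STAR, RSEM, featureCounts and the builds GRCh38 and hg38 are named, without versions, per the submitters' processing notes; which of them made which table, with which annotation release and by which filter to 16742 genes, is not known here. TPM keeps no depth, so counting error is unknown. TPM divides by gene length, so a library's length bias moves long and short genes apart. Undifferentiated levels were computed as CPM from the authors' deposited counts, without a test.

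IDs were matched to GENCODE v29 (99.8% had a symbol and 99.1% a length). Genes with at least 1 TPM in at least 2 libraries of a layer were fitted on log2(TPM + 1), all 4 genotypes sharing a spread, with limma 3.58.1 (trend and Benjamini-Hochberg adjustment; R 4.3.3), and called at adjusted p under 0.05. A 2 against 2 exact permutation test cannot pass that threshold. The length correction subtracted, per library, a loess (span 0.3) of the deviation from the gene mean on log2 exon length. Alternatives were other pseudocounts (0.1, 5), filters, scalings (edgeR 4.0.16 for TMM), corrections and left-out libraries. The fit was checked on simulated data. Tables were made with Python 3.11.15, pandas 2.3.3 and numpy 2.4.6. H9 cells and the other comparisons of undifferentiated cells were not used here.

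Members and the 38 gene lists were chosen with earlier results of these data known. Named were the 12 largest rises and 12 largest falls among called genes with groups that do not overlap and at least 5 TPM in the higher group, up to 4 called members a list by p, the 5 largest each way in the other DKO contrasts, and the markers said above to be chosen after their values were seen; the text gives a selection.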

Additional observations from a re-analysis of the deposited data

Results flagged for a closer look

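For 22 named genes the called change in mesoderm cultures and the called change in endoderm or ectoderm cultures ran in opposite directions, in every library of each group. The difference between layers was not tested, and the tables were normalised separately. Values below are DKO minus WT differences on log2(TPM + 1) in the other layer, with limma.

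Genes lower in DKO mesoderm and higher in DKO endoderm were HAPLN1 (2.64), GATA3 (1.64), MSX2 (3.73), DLL3 (4.74), WNT5B (1.60), FGFR3 (1.12), BAMBI (1.16), BMP7 (1.33), MEST (1.06) and MCM7 (0.59). MSX2 had 78.5 and 128 TPM in DKO and 9.69 and 4.45 TPM in WT endoderm cultures, and DLL3 had 55.6 and 80.8 TPM in DKO and 5.49 and 0 TPM in WT endoderm cultures. Genes higher in DKO mesoderm and lower in DKO endoderm were DKK4 (-5.11), FGF17 (-1.80) and CDH3 (-4.01). CDH3 had 182 and 186 TPM in WT endoderm cultures, where DKO was lower, and rose in DKO mesoderm by 2.98 ± 0.30.

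Genes lower in DKO mesoderm and higher in DKO ectoderm were NPY (4.38), DLL3 (2.23), CRABP2 (1.35), COL6A1 (1.01), PKM (1.63) and IFITM2 (1.09). NPY had 21.6 and 18.3 TPM in DKO ectoderm cultures and was listed at 0 in WT, so its difference has no scale. Genes higher in DKO mesoderm and lower in DKO ectoderm were FGF8 (-1.61), FST (-1.24), SOX2 (-0.76) and DPPA4 (-0.73).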

How the results depend on the processing

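The columns of the mesoderm table repeat their names within a genotype. No paired analysis was possible because the columns carry no replicate numbers, so the planned fit with a replicate block was not run. Calls in DKO against WT numbered 2607 with only the 4 DKO and WT libraries, and leaving out 1 library gave 290 to 1980. Against XKO that range was 465 to 4670 and against YKO 1175 to 5939, with 3376 calls against YKO after length and GC correction. Non-additivity gave 2567 calls after length correction, 2188 after length and GC correction and 1217 to 5631 without 1 library. Endoderm gave 691 to 2174 and ectoderm 467 to 1329 without 1 library.

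XKO against WT had 2 calls with a pseudocount of 5, 2 with no filter, 44 without a mean-variance trend, 17 without genes with unlike zeros, 3 with protein-coding genes only (chosen after seeing the data) and 0 to 4 without 1 library. YKO against WT had 5 with a filter at 5 TPM, 1 with TMM, 6 after quantile normalisation, 4 after length correction, 6 after length and GC correction, 26 without the trend, 7 without unlike zeros, 4 with protein-coding genes only and 1 to 2831 without 1 library. The length slope of 0.12 was 0.23 in protein-coding genes. The median shift was 0.0029 after centring, 0.031 with TMM, -0.011 after quantile normalisation, -0.031 after length correction and -0.026 after length and GC correction.

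Of 126 called genes named, none changed sign. They were named because they were called, and the largest rises and falls also because their DKO and WT libraries do not overlap. For the latter, leaving out 1 library could not change the sign, so the stable sign is no check of them. Of 1757 values under alternatives other than leaving out 1 library, 1716 stayed past the threshold. Leaving out 1 library left its genotype with a single library. Many of these genes were then no longer called in at least 1 such fit. Sign changes were limited to 3 uncalled genes. MSGN1 was at -0.20 after centring, -0.19 with TMM, -0.0038 after quantile normalisation, -0.018 after rescaling without the most abundant genes, -0.26 after length correction, -0.13 after length and GC correction, and -0.0058 to 0.023 without 1 library. FGFR1 was at -0.27 after length correction and -0.27 after length and GC correction, and TBX6 ranged over -0.27 to 0.21 without 1 library, with 0.011 without the first DKO library. The causes were not tested. The depth behind TPM is unknown, so no counting error can be given.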
